A study of Homo sapiens with 30 samples.

Results

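Gene expression in SW1783, an established human astrocytoma cell line, was compared between a high and a low concentration of Yijin-tang. The comparison is of 3 libraries from cells kept with the ethanol extract at 500 µg/mL against 3 libraries at 20 µg/mL, 6 of the 30 libraries of the series. These 6 were taken by their labels, and all belong to one set of library names. Of 60675 gene entries in the count table, 16872 had enough counts to be tested and all of these are counted below.

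Yijin-tang is a herbal decoction of traditional Korean medicine. The series profiled ethanol extracts of 4 such decoctions, each at 500, 100 and 20 µg/mL, by RNA sequencing. Besides the 6 libraries, 4 groups of 3 libraries each are used here for reference: Yijin-tang at 100 µg/mL, Soshiho-tang at 500 and at 20 µg/mL, and cells with DMSO alone (the vehicle). Soshiho-tang at 100 µg/mL, also 3 libraries, enters the fit. Okbyeongpung-san, with 2 libraries at each concentration, and Soyo-san, with 1, give levels alone, and their libraries carry names of a set other than that of Yijin-tang, and some a further batch letter (BatchD) in their titles. All cells were SW1783, grown in L-15 medium with serum and collected after 24 h. The vehicle libraries carry names of another set, so differences from vehicle and differences between sets cannot be told apart and vehicle levels are given only side by side. The sample labels and the series description name different DMSO concentrations. SW1783 is a single line, and the labels leave unsaid whether replicate libraries stem from separate cultures. The p-values therefore describe the spread among libraries, which may be technical. In bulk RNA, fewer cells of a kind and less RNA per cell cannot be told apart.

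The groups of genes described below belong to a few well-known circuits. TXNIP and ARRDC4 encode alpha-arrestins, adaptor proteins that restrain glucose uptake, and their promoters are read by the glucose-sensing factors MondoA and ChREBP through paired E-boxes. Genes of cholesterol synthesis and uptake are driven by the SREBP factors, which INSIG proteins hold in the endoplasmic reticulum when sterols are plentiful. NRF2 drives antioxidant genes, ATF4 the genes of amino acid shortage and stress, and YAP and SRF genes of the contractile cytoskeleton.

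The promoters of 4 genes on which the results turn are shown because each holds a match to an element searched for in its group. Sequences are from the RefSeq promoter table (GRCh38.p14), read 5′ to 3′ on the gene's strand, and end where the GENCODE 29 gene model begins. Capitals mark the matches. For TXNIP (chr1:145996601-145996829, minus strand) they mark the carbohydrate response element, a pair of E-boxes, from 88 to 72 bases before the RefSeq start, which is 1 of 2 listed starts. For ARRDC4 (chr15:97960453-97960697, plus strand) they mark a single E-box CACGTG, 210 to 205 bases before the start, without a match to the pair. In SREBF2 (chr22:41832855-41833078, plus strand), which encodes SREBP2, they mark the sterol response element, 134 to 125 bases before the start. In TOP2A (chr17:40417951-40418146, minus strand), a mitotic gene, they mark 2 copies of TTTGAA, the cell cycle homology region, and 3 of CCAAT, all on either strand.
TXNIP: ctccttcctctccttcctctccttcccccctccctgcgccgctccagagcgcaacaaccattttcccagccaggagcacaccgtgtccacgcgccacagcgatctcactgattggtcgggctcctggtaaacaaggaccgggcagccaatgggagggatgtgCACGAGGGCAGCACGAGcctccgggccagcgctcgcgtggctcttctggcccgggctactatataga
ARRDC4: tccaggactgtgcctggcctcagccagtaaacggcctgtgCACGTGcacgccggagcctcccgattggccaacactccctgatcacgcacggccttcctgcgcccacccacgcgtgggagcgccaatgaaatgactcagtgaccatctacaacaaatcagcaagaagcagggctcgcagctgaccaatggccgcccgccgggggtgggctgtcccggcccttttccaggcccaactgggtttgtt
SREBF2: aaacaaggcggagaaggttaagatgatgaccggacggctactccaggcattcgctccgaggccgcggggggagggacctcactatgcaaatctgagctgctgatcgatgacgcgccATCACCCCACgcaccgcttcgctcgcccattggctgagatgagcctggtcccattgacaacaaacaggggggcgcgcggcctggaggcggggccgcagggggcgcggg
TOP2A: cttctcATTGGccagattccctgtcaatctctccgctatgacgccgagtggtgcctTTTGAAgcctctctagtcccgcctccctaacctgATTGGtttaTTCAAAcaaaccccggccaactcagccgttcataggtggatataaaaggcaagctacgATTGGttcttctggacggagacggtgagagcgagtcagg

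Over all 35116 promoter windows of the table, each 250 bases before to 50 after a start, 0.501% held the paired E-box, 7.26% CACGTG and 0.0456% the sterol response element on either strand. TTTGAA stood in 15.2% and CCAAT in 34.6%. TXNIP was the only alpha-arrestin of the 5 with the paired E-box and ARRDC4 the only one with CACGTG. Among 18 cholesterol genes with a window, SREBF2 alone held the sterol response element. Of 25 mitotic genes with a window, 18 held TTTGAA and 20 CCAAT in at least 1 listed promoter, against 18.2% and 39.7% of all 27305 genes of the table. Of 24 NRF2 targets, 7 held the antioxidant response element TGACNNNGC, GCLM and TXNRD1 among them, against 16.1% of all genes. A match in such a window describes letters only.

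Total estimated counts of the 6 libraries lay between 25 and 33.1 M. Replicate 3 at 500 µg/mL stood apart from the other libraries of its group. Mitochondrially encoded genes took 10.6% of its counts, against 6.70% and 7.35% in replicates 1 and 2. The libraries at 20 µg/mL had 9.05%, 9.59% and 7.15%, so the groups overlapped. A chi-square statistic comparing gene counts of library pairs, divided by its degrees of freedom, was 4.3 between replicates 1 and 2 at 500 µg/mL, 39.5 between 1 and 3, and 23.5 between 2 and 3. Counts that rest on replicate 3 are therefore also given without it. GFAP and S100B, defining markers of astrocytes, stayed at or below 0.204 and 0.178 CPM in all 6 libraries, and AQP4 and OLIG1 had no counts. Of 16 glial and glioma markers, 8 lay below 1 CPM in every library, while the vimentin gene VIM lay between 4061 and 5192 CPM.

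In total 951 genes, 5.64% of those tested, differed between 500 and 20 µg/mL at a Benjamini-Hochberg adjusted p under 0.05 in the quasi-likelihood test of edgeR. These are called genes below. Of them 455 (2.7% of genes tested) were higher and 496 (2.94%) lower at 500 µg/mL, and 870 code for proteins. Most changes were small. The median size of a called change was 0.299 on the log2 scale, and 31 called genes changed at least 2-fold, 21 of them up and 10 down. In 939 of the called genes the libraries of both groups did not overlap, which was so for 22% of all genes tested. Without replicate 3 at 500 µg/mL the count was 1057, of which 726 were among the 951. At the high concentration, dropping replicate 1 gave 617 and dropping replicate 2 gave 519. At the low one, dropping replicate 1 gave 505 and dropping replicate 2 gave 530. A fit of the 6 libraries alone called 308, with 301 of them among the 951.

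**Figure D1:**
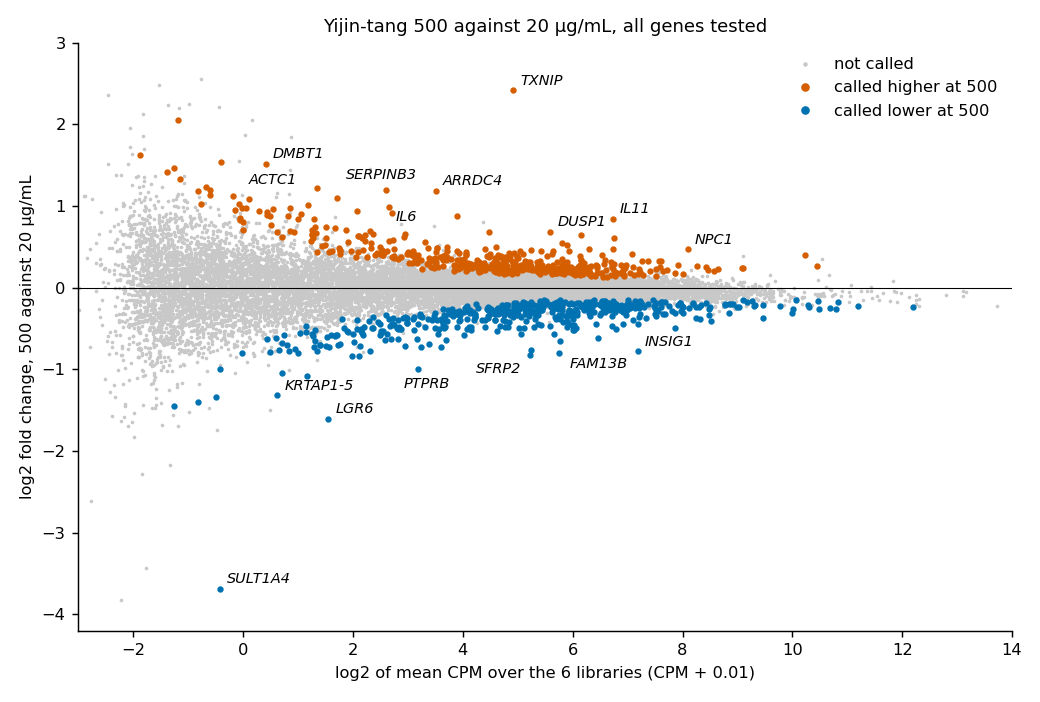
Log2 fold change at 500 against 20 µg/mL of Yijin-tang (vertical) against log2 of the mean level over the 6 libraries (horizontal) for all 16872 genes tested, with 455 called higher in orange and 496 called lower in blue. TXNIP stands alone at a log2 fold change of 2.42, and 19 genes, 1 of them called and without a gene symbol, lie outside the plotted range.

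TXNIP (chr1:145992435-145996600 in GENCODE 29, GRCh38, as for all gene positions below), the alpha-arrestin that also binds thioredoxin, rose most among called genes at 1 CPM or more. Its level was 50.1, 49.9 and 53.3 CPM in the libraries at 500 µg/mL and 8.42, 9.45 and 10.8 CPM at 20 µg/mL. All 3 libraries at the high concentration lay far above all at the low one (log2 fold change 2.42 ± 0.08 SE, adjusted p = 1.36e-14). The level at 100 µg/mL, 10.5, 11.6 and 12.9 CPM, overlapped with that at 20 µg/mL (0.29 ± 0.09 for 100 against 20, not called). Most of the rise lay between 100 and 500 µg/mL (2.13 ± 0.08). Vehicle had 9.59 to 11.2 CPM. Among the groups of the other 3 extracts, mean TXNIP levels ran from 4.89 to 14.9 CPM when all 30 libraries were scaled together, against 51.3 CPM for Yijin-tang at 500 µg/mL.

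ARRDC4 (chr15:97960698-97973838), a second alpha-arrestin, followed the same course at lower amplitude. Its level was 15.4, 15.7 and 16.2 CPM at 500 µg/mL against 6.12, 7.12 and 7.45 CPM at 20 µg/mL (1.19 ± 0.09, adjusted p = 7.96e-08), with no overlap. At 100 µg/mL it had 6.43 to 8.09 CPM, which overlapped with 20 µg/mL. The other alpha-arrestins did not pass the test: ARRDC1 differed by -0.13 ± 0.08, ARRDC2 by 0.17 ± 0.08 and ARRDC3 by -0.06 ± 0.05. Of 9 tested targets of ChREBP and MondoA, TXNIP and ARRDC4 were the 2 called, against 5.64% of all genes tested. The median of the 9 was 0.05, against 0.00 over all genes. The rest of that list, which holds the lipogenic gene FASN (-0.16 ± 0.07) and the glycolytic kinase gene HK2 (0.02 ± 0.07), was not called. PDK4, a brake on pyruvate oxidation that appears with TXNIP in the list of FOXO and insulin feedback genes, was higher (0.93 ± 0.27, adjusted p = 0.0436), but the call was lost under 10 of 18 alternative settings.

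**Figure D2:**
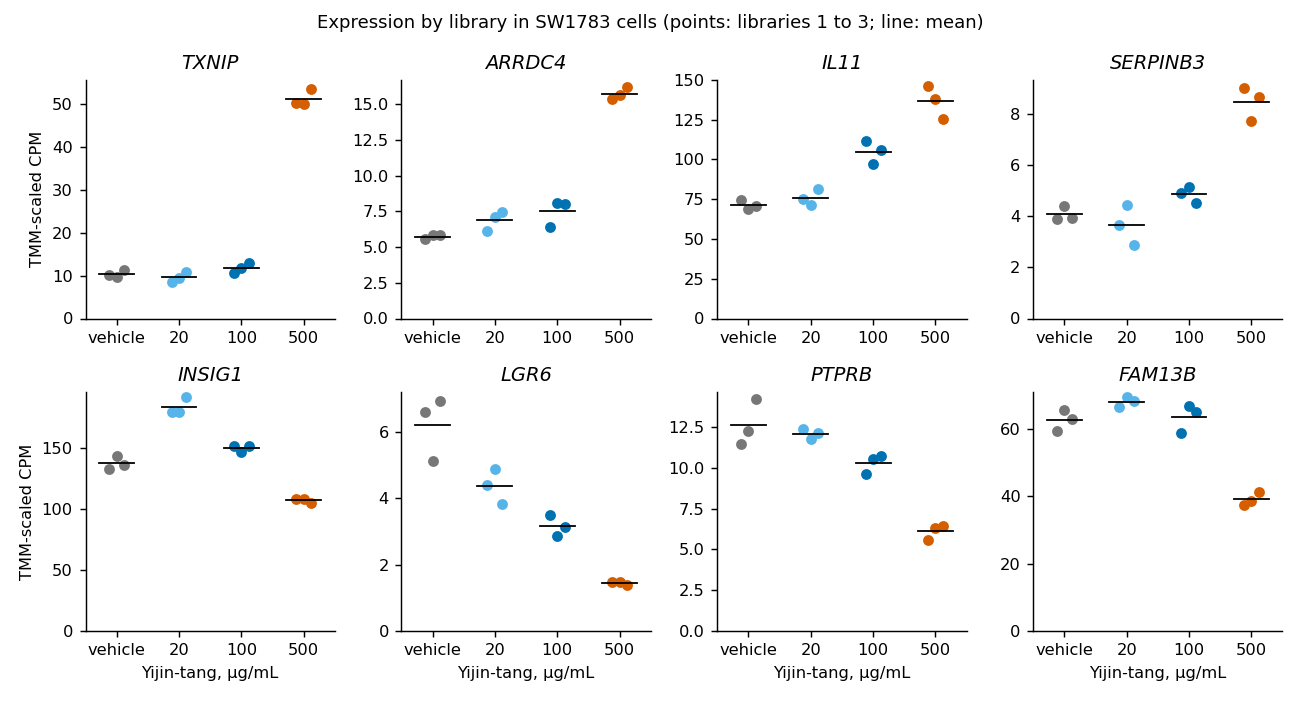
Level in TMM-scaled CPM (vertical, from 0) of 8 genes in each library of vehicle and of Yijin-tang at 20, 100 and 500 µg/mL, with a line at the mean of 3 libraries. TXNIP, ARRDC4 and FAM13B differ at 500 µg/mL with 20 and 100 µg/mL close together, while IL11, INSIG1 and LGR6 also differ in mean between 20 and 100 µg/mL.

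Other genes with large rises follow by name. DMBT1, a scavenger receptor protein of mucosal surfaces, had 2.25, 1.81 and 1.82 CPM at 500 µg/mL against 0.846, 0.650 and 0.558 CPM at 20 µg/mL (1.52 ± 0.23, adjusted p = 0.000246). SERPINB3, an intracellular protease inhibitor of squamous epithelium, stood at 9.02, 7.72 and 8.65 CPM against 3.67, 4.45 and 2.87 CPM (1.20 ± 0.12, adjusted p = 2.19e-06). The libraries did not overlap for either gene. Genes named for the largest rises and falls were picked for having no overlap, so in them it adds nothing to the call. SERPINB4 is a near-identical neighbour of SERPINB3, so its rise (1.02 ± 0.19) may share reads with it and is uncertain. Of 11 tested serpin clade B and keratinocyte genes, SERPINB3, SERPINB4, KRT80 (0.52 ± 0.05) and KRT81 (0.42 ± 0.06) rose and the simple-epithelium keratin gene KRT18 fell (-0.45 ± 0.06). The list's median was 0.04, and among all genes tested 2.7% were called higher and 2.94% lower. Defining epithelial markers were almost absent: EPCAM, CDH1, KRT5, KRT14 and KRT19 lay below 1 CPM in all 6 libraries, and the summed level of the 8 epithelial markers was 121 to 122 CPM at 500 and 152 to 175 CPM at 20 µg/mL, a sum in which KRT18 takes the largest share.

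ACTC1, which encodes cardiac alpha-actin, had 3.27, 3.82 and 3.60 CPM against 1.65, 1.3 and 1.63 CPM (1.22 ± 0.18, adjusted p = 0.00015). Each library at 500 µg/mL was above each at 20 µg/mL, and vehicle had 0.819 to 1.21 CPM. Also among the 12 highest were the pseudogenes NMRAL2P (1.10 ± 0.17) and ADCY10P1 (1.12 ± 0.23), whose calls may be affected by reads shared with related genes. ADCY10P1, COX6B2 (1.03 ± 0.27) and MESP2 (0.98 ± 0.26) were not called when the 6 libraries were fitted alone. COX6B2 is a testis form of a cytochrome oxidase subunit and MESP2 a transcription factor of somite formation. Of 18 alternative settings, 7 lost the call of COX6B2, 7 that of MESP2 and 2 that of ADCY10P1.

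The cytokine genes IL11, IL6, CXCL5, CXCL8 and IL1B rose at 500 µg/mL, while CCL2 and PTGS2 fell. Of 20 tested inflammatory and NF-kB target genes, these 5 were higher, against 2.7% of all genes tested, and these 2 lower, against 2.94%. The other 13 were not called, and the median was 0.17. Without replicate 3 at 500 µg/mL, 6 were higher, and 3 were in the fit of the 9 Yijin-tang libraries. IL11 (chr19:55364389-55370463), a cytokine of the IL6 family, had 146, 138 and 125 CPM at 500, 97.1 to 111 CPM at 100, and 74.9, 71.5 and 81.7 CPM at 20 µg/mL (0.85 ± 0.09 for 500 against 20, adjusted p = 2.27e-06). The 3 concentrations did not overlap, and the lowest was close to vehicle (69.1 to 74.4 CPM).

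IL6 had 7.38, 7.76 and 9.83 CPM against 4.71, 3.42 and 4.46 CPM (0.99 ± 0.15, adjusted p = 0.00024). IL6 had no overlap, which the rule for naming the largest rises required. The neutrophil chemokines CXCL5 (1.54 ± 0.30) and CXCL8 (0.55 ± 0.13) and the cytokine IL1B (0.57 ± 0.12) rose as well. CXCL5 was at 0.992 to 1.25 CPM even at the high concentration. CCL2, the monocyte chemokine, went the other way, from 14.7 to 17.0 CPM at 20 µg/mL down to 8.61 to 12.5 CPM at 500 µg/mL (-0.64 ± 0.12, adjusted p = 0.00302). PTGS2, the inducible cyclooxygenase gene, fell by 0.33 ± 0.05 on the log2 scale. None of 25 interferon-stimulated genes was called by edgeR, against 5.64% of all genes tested. Of 8 leukocyte markers 5 lay below 1 CPM in every library, and their summed level was 177 to 255 CPM at 500 and 168 to 200 CPM at 20 µg/mL, of which the macrophage marker CD68, also a general lysosomal gene, made up most.

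DUSP1, a phosphatase that switches off MAP kinases and a glucocorticoid-responsive gene, rose from 38.1, 35.3 and 37.6 CPM at 20 to 59.8, 63.1 and 55.7 CPM at 500 µg/mL (0.69 ± 0.06, adjusted p = 6.19e-07). The libraries did not overlap, and vehicle had 40.5 to 43.4 CPM. Of 9 tested glucocorticoid-responsive genes DUSP1 and KLF9 (0.18 ± 0.04) were the 2 called, against 5.64% of all genes tested. The median over the list was 0.04.

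Many cholesterol genes fell. Of 25 genes of cholesterol synthesis and uptake, 14 were lower and 0 higher, against 2.94% lower among all genes tested. The other 11 were not called, 5 of the 25 had a value above 0, and the median was -0.28. Without replicate 3 at 500 µg/mL 13 were lower. INSIG1 (chr7:155297776-155310235), the sterol-sensing anchor of SREBP, had 108, 108 and 105 CPM at 500 and 180, 179 and 191 CPM at 20 µg/mL (-0.78 ± 0.04, adjusted p = 4.33e-11). The groups lay far apart. At 100 µg/mL it had 152, 147 and 152 CPM, between the other concentrations and without overlap with either, and it was the single gene called between 100 and 20 µg/mL (-0.29 ± 0.04, adjusted p = 0.0045). Vehicle had 133 to 144 CPM, so 20 µg/mL was above vehicle and 500 µg/mL below it.

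Enzymes of the pathway that were called had changes of smaller size than that of INSIG1. MSMO1 (-0.50 ± 0.05) removes methyl groups from sterol intermediates and HMGCS1 (-0.46 ± 0.05) makes HMG-CoA. SQLE, the squalene epoxidase, fell by 0.30 ± 0.04 on the log2 scale. Also lower were LSS, DHCR7, IDI1, SC5D and FDFT1 (-0.38 to -0.20), the sterol carrier STARD4 (-0.41 ± 0.08) and SREBF2 itself (-0.35 ± 0.04), whose promoter is shown above. CYP51A1 (0.01 ± 0.05) and FDPS (-0.08 ± 0.06), also enzymes of the pathway, were not called.

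Neighbouring lipid genes moved in part. Of 17 genes of fatty acid synthesis 3 were lower and 1 higher, against 2.94% and 2.7% of all genes tested. The median was -0.10. SCD, the desaturase that makes oleate, had 198, 191 and 194 CPM against 285, 276 and 258 CPM (-0.49 ± 0.05, adjusted p = 5.68e-06), without overlap. FADS2 (-0.29 ± 0.05) and LPIN1 (-0.27 ± 0.05) were lower and MID1IP1, which activates acetyl-CoA carboxylase, higher (0.18 ± 0.05). The call of MID1IP1 was lost under 7 of 19 alternative settings and that of LPIN1 under 2, the fit of 6 libraries among them (adjusted p = 0.0539). NPC1, the lysosomal cholesterol exporter, rose from 231, 240 and 215 CPM to 324, 316 and 311 CPM (0.47 ± 0.05, adjusted p = 9.66e-06). It was the single member higher among 24 lysosome and autophagy genes, against 2.7% of all genes tested. The proton pump subunit ATP6V0D1 was the single one of the list that was lower (-0.19 ± 0.04), against 2.94%. NR1H3, which encodes the oxysterol receptor LXR alpha, was higher (0.66 ± 0.18), and MYLIP, an LXR target that encodes a ubiquitin ligase, lower (-0.32 ± 0.08). The call of NR1H3 was lost under 7 of 19 alternative settings and that of MYLIP under 6, the fit of the 6 libraries among them.

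**Figure D3:**
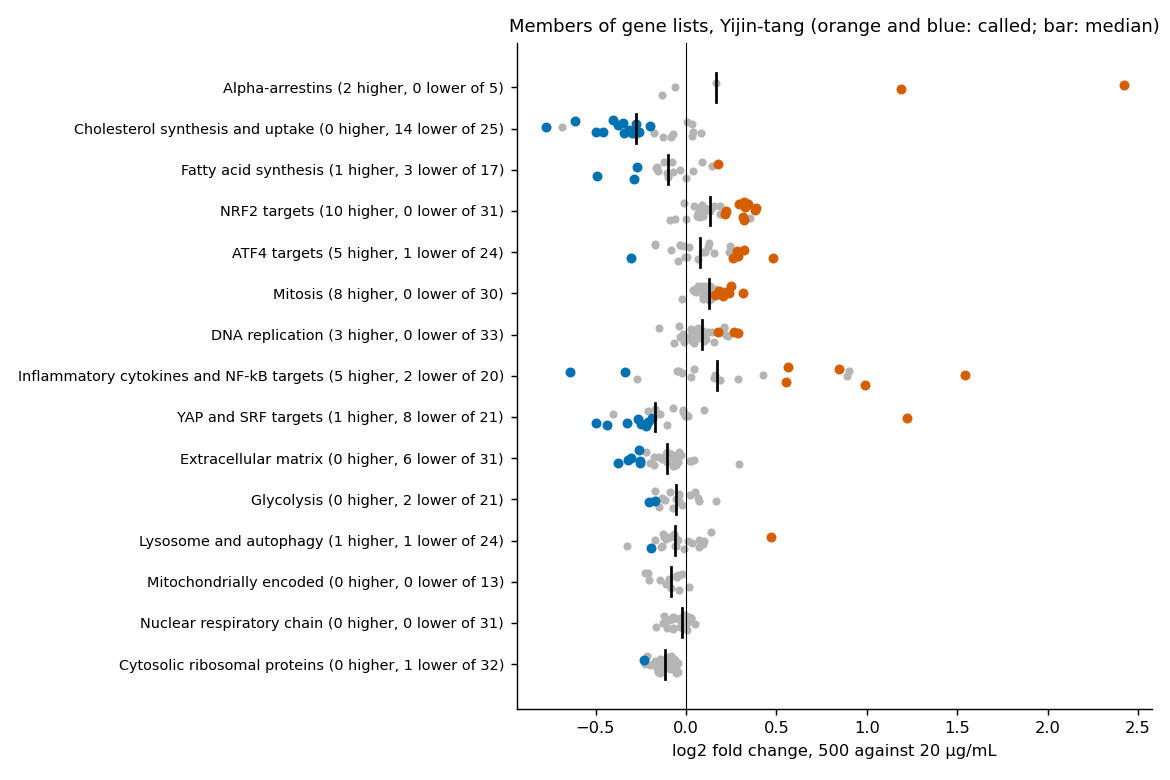
Log2 fold change at 500 against 20 µg/mL (horizontal) of the tested members of 15 gene lists (rows), with called members in orange or blue, the others in grey and a bar at each list's median. Cholesterol genes lie mostly to the left with a median of -0.28, and NRF2 targets and mitotic genes lie mostly to the right, each with a median of 0.13.

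Some NRF2 targets rose by small amounts. Of 31 tested, 10 were higher and 0 lower, against 2.7% higher among all genes tested, and 27 of the 31 had a value above 0 (median 0.13). Without replicate 3 at 500 µg/mL 11 were higher, and 5 were higher when the 6 libraries were fitted alone. HMOX1, heme oxygenase, had 79.9, 80.6 and 77.5 CPM against 59.6, 58.5 and 63.5 CPM (0.39 ± 0.06, adjusted p = 0.000175), with no overlap. The glutathione synthesis gene GCLM (0.34 ± 0.06), the quinone reductase gene NQO1 (0.33 ± 0.06), the cystine transporter gene SLC7A11 (0.32 ± 0.07) and OSGIN1 (0.38 ± 0.07) rose by similar amounts. AKR1C1, SRXN1, SLC48A1, GSR and TXNRD1 were the rest, at 0.22 to 0.32. Ferritin heavy chain FTH1 (0.09 ± 0.08) and the autophagy receptor SQSTM1 (0.07 ± 0.05) were not called. Levels at 100 µg/mL were close to those at 20 µg/mL: HMOX1 had 53.2 to 61.9 CPM there. NQO1 was also the single member called among 8 tested targets of the aryl hydrocarbon receptor, against 5.64% of all genes tested.

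Stress genes of the ATF4 list moved little. Of 24 tested, 5 were higher (DDIT4, SLC7A11, DDIT3, SLC7A5 and ASNS) and STC2 was lower, with a median of 0.08, against 2.7% higher among all genes tested. Without replicate 3 at 500 µg/mL 7 were higher. The count was 3 without replicate 1 at 500 µg/mL, without replicate 2 at 20 µg/mL, and in the fit of the 6 libraries alone. DDIT4, which restrains mTORC1, had 97.4, 98.4 and 78.0 CPM against 62.0, 65.4 and 69.0 CPM (0.48 ± 0.09, adjusted p = 0.00191), with replicate 3 nearest to the low concentration. DDIT3 overlapped between the groups (25.1 to 29.7 against 20.8 to 25.9 CPM). None of 18 chaperones of the endoplasmic reticulum was called by edgeR, against 5.64% of all genes tested. Of 16 cytosolic heat shock genes HSP90AA1 was higher (0.26 ± 0.05) and HSPA8 (-0.31 ± 0.06) and DNAJB1 (-0.28 ± 0.04) lower. Among all genes tested 2.7% were higher and 2.94% lower. In HSPA8, replicate 3 was the library at 500 µg/mL nearest to the low concentration.

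Some mitotic genes were slightly higher at 500 µg/mL. Of 30 tested, 8 were called higher and 0 lower, against 2.7% higher among all genes tested, and 29 had a value above 0 (median 0.13). The calls were 5, 4 and 6 when replicate 1, 2 or 3 of the high concentration was dropped, 3 or 2 when replicate 1 or 2 of the low one was, and 2 in the fit of the 6 libraries alone. TOP2A, the topoisomerase of dividing cells, had 589, 585 and 586 CPM against 490, 494 and 509 CPM (0.24 ± 0.04, adjusted p = 0.00235), with no overlap. The cyclin gene CCNA2 had 114, 111 and 119 CPM against 90.5, 93.0 and 93.3 CPM (0.31 ± 0.04, adjusted p = 0.000121). CDK1 (0.25 ± 0.06), AURKB (0.22 ± 0.06), NDC80, KIF2C, CCNB2 and AURKA were the others called. MKI67, the usual marker of cycling cells, was not (0.04 ± 0.13), nor CCNB1 (-0.02 ± 0.05). In DNA replication 3 of 33 genes were higher, against the same 2.7%: CDC45 (0.29 ± 0.06), MCM10 (0.27 ± 0.05) and RRM2 (0.18 ± 0.04). The call of RRM2 was lost under 4 of 19 alternative settings and that of MCM10 under 2.

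Contractile and matrix genes were lower in part. Of 21 targets of YAP and SRF 8 were lower and 1, ACTC1, higher (median -0.17), against 2.94% lower among all genes tested. The lower members numbered 8 without replicate 3 at 500 µg/mL, 5 without replicate 2, 5 in the fit of the 6 libraries alone and 3 in that of the 9 Yijin-tang libraries. CCN2, a matricellular YAP target, had 128, 119 and 125 CPM against 183, 159 and 164 CPM (-0.44 ± 0.07, adjusted p = 0.000273), without overlap. ANKRD1 (-0.50 ± 0.09), the actin-binding CNN2 (-0.32 ± 0.04) and the adhesion protein gene VCL (-0.26 ± 0.05) were lower too. ANKRD1 stood at 8.85 to 10.1 CPM in vehicle, close to its 9.36 to 11.2 CPM at 500 µg/mL and below its 13.7 to 15.6 CPM at 20 µg/mL.

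Of 31 extracellular matrix genes 6 were lower and 0 higher (median -0.11), against the same 2.94%. Without replicate 3 at 500 µg/mL 5 were lower, without replicate 1 at 20 µg/mL 3, and in the fit of the 6 libraries alone 2. THBS2, a matricellular glycoprotein, had 143, 143 and 134 CPM against 182, 186 and 177 CPM (-0.38 ± 0.05, adjusted p = 3.35e-05). COL3A1 (-0.30 ± 0.06), COL1A2 (-0.26 ± 0.06), THBS1 (-0.26 ± 0.07), the crosslinking enzyme gene LOXL2 (-0.26 ± 0.05) and DCN (-0.32 ± 0.09) were the others, and DCN was lost under 13 of 19 alternative settings. COL1A1 was not called (-0.11 ± 0.06). Of 15 TGF-beta targets 1 was higher and 1 lower, against 2.7% and 2.94% of all genes tested. These were TGFBR1, a TGF-beta receptor (0.29 ± 0.08), and PMEPA1, a feedback gene of that pathway (-0.18 ± 0.05). Each call was lost under 8 of 19 alternative settings.

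The strongest falls were in genes of no single list. These genes too were picked for having no overlap between 500 and 20 µg/mL. LGR6 (chr1:202193901-202319781), a receptor for R-spondins, had 1.46, 1.47 and 1.39 CPM at 500, 2.88 to 3.51 CPM at 100 and 4.39, 4.89 and 3.83 CPM at 20 µg/mL (-1.60 ± 0.17 for 500 against 20, adjusted p = 2.89e-06). The 3 concentrations did not overlap, and vehicle was highest at 5.12 to 6.94 CPM. PTPRB (chr12:70515866-70637440), a receptor phosphatase best known from endothelium, had 5.58, 6.29 and 6.45 CPM against 12.4, 11.8 and 12.1 CPM (-0.99 ± 0.08, adjusted p = 2.18e-07), again without overlap. Of 7 endothelial markers 5 lay below 1 CPM in every library, and their summed level was 34.1 to 38.5 CPM at 500 and 34 to 37.2 CPM at 20 µg/mL.

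FAM13B had 37.4, 38.5 and 41.3 CPM against 66.7, 69.4 and 68.2 CPM (-0.80 ± 0.05, adjusted p = 4.18e-09), and its 59.0 to 66.9 CPM at 100 µg/mL overlapped with vehicle at 59.4 to 65.8 CPM. SFRP2, a secreted Wnt modulator, had 25.4, 26.6 and 29.1 CPM against 46.5, 49.1 and 48.2 CPM (-0.83 ± 0.07, adjusted p = 5.11e-07). Neither gene overlapped between 500 and 20 µg/mL, which the rule for naming the largest falls required. PADI2 (-0.84 ± 0.14), which converts arginine to citrulline in proteins, BMF (-0.84 ± 0.12), a pro-apoptotic BCL2 family member, and COL17A1 (-0.80 ± 0.16), a collagen of hemidesmosomes, were lower as well. KRTAP1-5, a hair keratin-associated protein, had 0.759, 0.656 and 1.21 CPM against 2.14, 2.29 and 2.11 CPM (-1.32 ± 0.21). The antisense AP1G2-AS1 was lower (-1.08 ± 0.17), and its reads cannot be told apart with certainty from those of AP1G2, as the strand setting of the counting is not given in the sources used here. The call of SYNPO2 (-0.80 ± 0.23) was lost under 14 of 19 alternative settings and that of MACROD2 (-1.34 ± 0.31) under 5 of 17. The fit of the 6 libraries alone was among them for both.

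The lowest called value with a symbol, that of SULT1A4, was uncertain. This sulfotransferase gene had 3 rounded counts in each library at 500 µg/mL and 40, 38 and 30 at 20 µg/mL, a ratio of 0.0769 (95% exact counting interval 0.0342 to 0.151). SULT1A3, its near-identical copy, had 87, 47 and 37 counts at 500 and 23, 26 and 64 at 20 µg/mL, in the opposite direction on average. Summed over both copies, the counts were 90, 50 and 40 against 63, 64 and 94, and the groups overlapped. RSEM divides reads between such copies, so the fitted change of SULT1A4 (-3.68 ± 0.48) may rest on that division, which was not tested.

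Several lists held few calls or none. None of the 13 mitochondrially encoded protein genes and none of 31 nuclear respiratory chain genes was called by edgeR, against 5.64% of all genes tested. RPL3 (-0.23 ± 0.07) was the single one lower of 32 cytosolic ribosomal protein genes, against 2.94%. All 32 ribosomal protein genes had a value below 0 (median -0.12).

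Where between the concentrations the change lay was read from the libraries at 100 µg/mL. Between 500 and 100 µg/mL, 299 genes (1.77%) were called, 143 higher and 156 lower. Dropping replicate 1 or 2 at 500 µg/mL left 182 or 156, and dropping replicate 3 at 100 µg/mL left 154. Between 100 and 20 µg/mL INSIG1 was the 1 gene called by edgeR (0.00593% of genes tested, lower at 100 µg/mL), though 618 genes had an unadjusted p under 0.05 and DESeq2 called 8. The count was 0 without replicate 2 at 100 µg/mL and without replicate 3 at 20 µg/mL. The 2 comparisons share the libraries at 100 µg/mL, and neither count tests whether the steps differ. TXNIP, ARRDC4 and 9 of 31 NRF2 targets were among those higher at 500 than at 100 µg/mL, against 0.848% of all genes tested. Lower were 6 of 25 cholesterol genes and 7 of 21 YAP and SRF targets, against 0.925%. No mitotic gene was called in either step.

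The same step in concentration of Soshiho-tang, a different decoction whose libraries carry names of the same set, called 4868 genes (28.9%). The libraries of both comparisons are distinct. Of the 951 genes called with Yijin-tang, 633 (66.6%) were also called with Soshiho-tang, where they make up 13% of calls. In 515 of these the direction was the same and in 118 it was opposite. Across all genes tested the log2 fold changes of both extracts had a Pearson correlation of 0.129, with genes not independent of each other. The difference between the extracts' changes was tested as an interaction, and 2298 genes (13.6%) were called, 368 of them among the 951. With Yijin-tang relative to Soshiho-tang the change was higher in 6.99% of genes tested and lower in 6.63%.

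**Figure D4:**
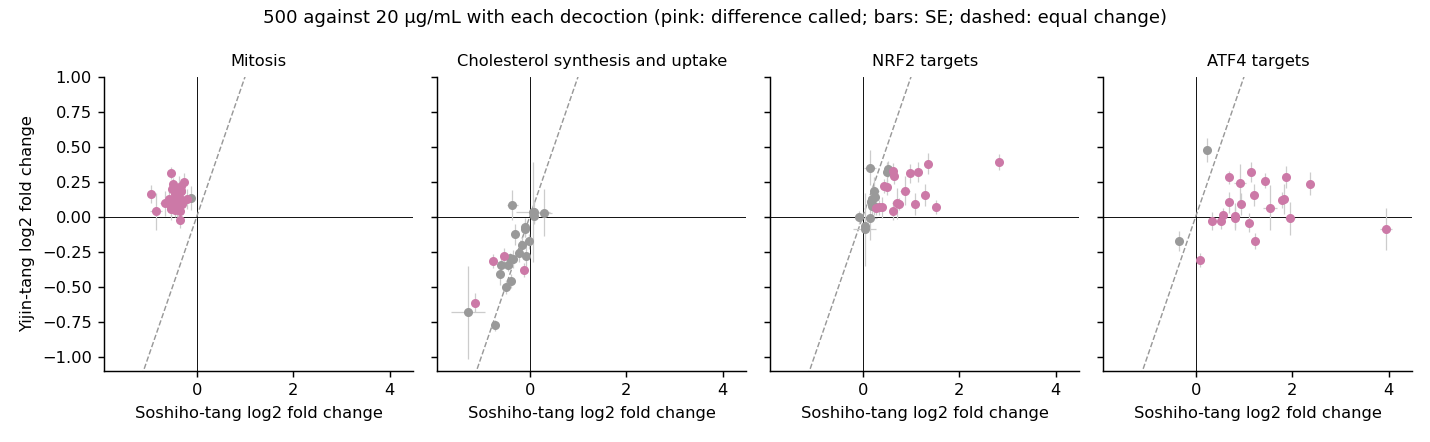
Log2 fold change at 500 against 20 µg/mL with Soshiho-tang (horizontal) and Yijin-tang (vertical, on a wider scale) of the tested members of 4 lists, with SE bars, members whose change differed between the extracts in pink and a dashed line at equal change. Mitotic genes lie left of 0 with Soshiho-tang and mostly above 0 with Yijin-tang, cholesterol genes lie along the dashed line, and NRF2 and ATF4 targets lie to its right.

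Many cholesterol genes fell with each extract. With Soshiho-tang 16 of 25 were lower, against 14.2% of all genes tested. The interaction was called for 4 of the 25, against 13.6% of all genes tested. Among these 4, IDI1 fell less with Yijin-tang and LSS fell more. INSIG1 fell by 0.72 with Soshiho-tang on the log2 scale, and its interaction was -0.06 (adjusted p = 0.57). Mitotic genes differed between the extracts. With Soshiho-tang 29 of 30 were lower, against the same 14.2%. By the interaction test 29 differed between the extracts, all of them higher with Yijin-tang relative to Soshiho-tang, against 6.99% of all genes tested. That count was 29 without replicate 3 of Yijin-tang at 500 µg/mL and 28 without replicate 3 of Soshiho-tang at 20 µg/mL. TOP2A changed by 0.24 with Yijin-tang and by -0.50 with Soshiho-tang.

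Most ATF4 targets and many NRF2 targets rose less with Yijin-tang than with Soshiho-tang. With Soshiho-tang 21 of 24 ATF4 targets and 23 of 31 NRF2 targets were higher, against 14.6% of all genes tested. By the interaction test the change was lower with Yijin-tang in 22 ATF4 targets and 18 NRF2 targets, against 6.63% of all genes tested. GDF15, a stress cytokine on the ATF4 list, changed by 3.95 with Soshiho-tang and by -0.08 ± 0.15 with Yijin-tang, and HMOX1 by 2.83 and 0.39. Among 24 lysosome and autophagy genes 18 differed in this direction, against the same 6.63%. IL11 went opposite ways, 0.85 with Yijin-tang and -0.52 with Soshiho-tang (interaction 1.36, adjusted p = 8.9e-08).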

How the data were processed

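The authors deposited RSEM estimated counts, also called expected counts, for Ensembl genes, made with RSEM 1.3.3 following STAR 2.7.3a, Trim Galore 0.6.5 and FastQC 0.11.9 on hg38 (GRCh38), per the submitters' processing notes. The annotation release and strand setting are not given in the sources used here. From 9.29% to 10.7% of values per library were not whole, and all were rounded before testing. Symbols came from identifiers (57055 of 60675 matched GENCODE 29).

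Groups follow the sample labels. The 21 libraries of vehicle, Soshiho-tang and Yijin-tang (23.9 to 33.1 M counts each) were fitted together with edgeR 4.0.16 (R 4.3.3): TMM scaling, filterByExpr set to at least 10 counts and a total of at least 15, the quasi-likelihood F test, Benjamini-Hochberg adjustment over all 16872 genes and a threshold of 0.05. The filter on low counts let in NHLH1 and left out LHX6, whose levels in the third highest library were 0.3745 and 0.374 CPM. SE is the absolute log2 fold change divided by the root of F, and levels are TMM-scaled CPM, not divided by gene length. Levels over all 30 libraries were scaled together.

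The members, the 36 gene lists and the tests were chosen with earlier results of these data known. Named genes are the 12 highest and 12 lowest changes among called genes with a symbol, no overlap and a mean of 1 CPM or more in the group that is higher, plus up to 4 called members of each list with at least 2 calls, all alpha-arrestins and GFAP, S100B and VIM. Others named as list members, and SULT1A3, were chosen after their values were seen. A few genes meeting this rule are left unreported. Alternatives were DESeq2 1.42.0, limma 3.58.1 with sample weights, other filters, scalings, sets of libraries and a replicate block, with each library of the groups compared left out in turn.

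On simulated data with these means and library sizes, 25 of 50 genes changed 1.25-fold and 39 of 50 changed 1.5-fold were recovered. For genes changed 2-fold and 4-fold it was 49 of 50 and 50 of 50, and 12 of 16515 unchanged genes were called. These counts were not shown to hold for data with a library that stands apart, as the high concentration has here. They are therefore no error rates for the comparison reported.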

Additional observations from a re-analysis of the deposited data

Results flagged for a closer look

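The changes at 500 against 20 µg/mL differed between Yijin-tang and Soshiho-tang in 2298 genes by the interaction term of the edgeR fit, and this difference is what selected the genes below. Of the 6 highest and 6 lowest changes with Yijin-tang, 9 of 12 differed, against 13.6% of all genes tested. These 12 were picked by their Yijin-tang change, which is part of the difference, so their count is no test. Differences are the Yijin-tang change minus the Soshiho-tang change on the log2 scale.

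The alpha-arrestin genes TXNIP and ARRDC4 rose more with Yijin-tang, by 1.82 (2.42 against 0.60, adjusted p = 6e-10) and by 0.839 (1.19 against 0.35, adjusted p = 0.00013). ACTC1 differed by 3.35, as it rose by 1.22 with Yijin-tang and fell by 2.13 with Soshiho-tang. SERPINB3 differed by 1.56 (1.20 against -0.36) and DMBT1 by 1.31 (1.52 against 0.21, adjusted p = 0.025).

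Among lower genes, KRTAP1-5 differed by -1.78 (-1.32 against 0.47) and PTPRB by -0.418 (-0.99 against -0.57, adjusted p = 0.015). The antisense AP1G2-AS1 differed by -0.759 (adjusted p = 0.037). SULT1A4 differed by -3.13 (adjusted p = 0.036), with the uncertainty of its near-identical copy given above. CXCL5, LGR6 and MACROD2 were the 3 whose interaction was not called.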

How the results depend on the processing

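Under all alternatives tried, none of the 951 calls changed sign in the count comparison. No tested gene named by the rule given above changed direction, while genes named outside that rule were not followed. Calls of TXNIP, ARRDC4, LGR6, PTPRB, SFRP2, FAM13B, INSIG1, SCD, IL11, DUSP1, NPC1 and KRT80 were among those that held under all of them. That of SULT1A4 held under the 18 alternatives in which it had an adjusted p. How many genes were called varied with the libraries fitted and with the method. Genes called at 500 against 20 µg/mL numbered 308 in a fit of 6 libraries, 370 in one of the 9 Yijin-tang libraries and 2483 with limma voom and sample weights, which gave replicate 3 at 500 µg/mL the lowest weight (0.319). Leaving out 1 library gave 505 to 1057. At 500 against 100 µg/mL (299) the counts were 465 with no filter, 59 with 9 libraries, 842 with limma voom and 154 to 375 with 1 library left out. At 100 against 20 µg/mL (1) they were 67 with no filter, 2 with a minimum of 1 CPM, 4 with limma voom, 8 with DESeq2 and 0 to 1 with 1 library left out. The interaction (2298) gave 3605 with limma voom and 1845 to 2213 with 1 library left out.

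Among list members, 6 libraries gave 5 NRF2 targets, 3 ATF4 targets and 2 mitotic genes higher, and 2 matrix genes and 5 YAP and SRF targets lower. The 9 libraries gave 3 mitotic and 3 inflammatory genes higher, and 3 matrix genes and 3 YAP and SRF targets lower. Limma voom gave 9 ATF4 targets and 8 inflammatory genes higher and 14 matrix genes lower. With 1 library left out the ranges were 12 to 15 cholesterol genes, 7 to 11 NRF2 targets, 3 to 7 ATF4 targets, 2 to 8 mitotic genes, 3 to 6 matrix genes, 5 to 8 YAP and SRF targets, 4 to 6 inflammatory genes and 4 to 4 serpin and keratin genes, and for the interaction 28 to 29 mitotic genes, 14 to 16 NRF2 targets, 21 to 22 ATF4 targets and 15 to 19 lysosomal genes. Libraries of the groups compared were left out in turn. Leaving out replicate 3 of Soshiho-tang at 20 µg/mL from the Yijin-tang results and the interaction counts of lists were chosen after seeing the data. Fewer libraries leave fewer degrees of freedom, and the cause of the shifts was not tested.

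Deviations from the group mean correlated at 0.0559, -0.285 and -0.372 between same-numbered libraries, and at -0.397 to 0.445 between differently numbered ones. With 3 libraries a group and replicate 3 at 500 µg/mL apart, these values cannot decide whether replicate numbers pair the libraries. With a replicate block, 927 genes were called over 21 libraries and 28 over 6, and over 6 the lists kept 2 cholesterol, 0 NRF2, 0 ATF4, 0 mitotic, 0 matrix, 0 YAP and SRF, 1 inflammatory and 1 serpin and keratin gene. Counting noise limits genes near 1 CPM, which rest on about 25 to 33.1 counts a library.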

Other observations

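Some marker genes were lower at 500 than at 20 µg/mL of Yijin-tang. Of 8 tested glial and glioma genes 3 were lower and 0 higher, against 2.94% lower among all genes tested. These were the transcription factor gene SOX9 (-0.38 ± 0.06), the glutamate transporter gene SLC1A3 (-0.28 ± 0.06) and VIM (-0.24 ± 0.06). The call of VIM was lost under 8 of 19 alternative settings and that of SLC1A3 under 4. Of 6 tested neuronal genes 3 were lower and 0 higher, against the same 2.94%. These were the microtubule-binding MAP2 (-0.57 ± 0.11), the synaptic calcium sensor gene SYT1 (-0.40 ± 0.07) and the tubulin gene TUBB3 (-0.24 ± 0.07). The call of TUBB3 was lost under 10 of 19 settings. Summed over 11 neuronal markers the level was 125 to 136 CPM at 500 and 151 to 154 CPM at 20 µg/mL. TUBB3 took the largest share, with means of 73.2 and 86.8 CPM. SNAP25, with means of 28.8 and 27.7 CPM, was not called. RBFOX3, NEFM, STMN2, DCX and GAP43 lay below 1 CPM in all 6 libraries.

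Single members of other lists were called, and these were picked after their values were seen. Among all genes tested 2.7% were called higher and 2.94% lower, so a single call does not describe its list. ANGPTL4, a lipoprotein lipase inhibitor, was the single hypoxia gene higher of 18 (0.88 ± 0.12), while 12 of the 18 had a value below 0. MT1E, a metallothionein, was the single one lower of 6 (-0.69 ± 0.12), and EGR3 was lower among 21 immediate early genes (-0.50 ± 0.12). The leukocyte phosphatase gene PTPRC was lower (-0.49 ± 0.07), at 8.08 to 8.50 CPM against 11.5 to 11.7 CPM.

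With Okbyeongpung-san at 500 µg/mL, which has 2 libraries and was not tested here, mean levels were 11.6 CPM for ARRDC4, 4.89 CPM for TXNIP and 134 CPM for IL11, beside 15.8, 51.3 and 137 CPM with Yijin-tang at 500 µg/mL.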
